A study of Homo sapiens with 9 samples.

Results

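RNA from HaCaT keratinocytes that received epidermal growth factor (EGF) was compared with RNA from untreated HaCaT keratinocytes. HaCaT is a spontaneously immortalized human keratinocyte line, and the labels name it as wild type. The comparison rests on the 6 libraries that the labels assign to these groups, out of 9 in the series, with 3 replicates per group, and the other 3 libraries come from cells treated with bleogen pB1 (1 µM), a plant peptide. The EGF group received EGF at 10 nM for 24 h. The untreated group was kept in serum-free medium, for which no time is stated. All groups were grown to confluence in DMEM with 10% fetal bovine serum, and the treatments were given in serum-free medium. Nothing states whether the replicates of a group came from separate cultures, so that the p-values measure the spread between these libraries, which may be technical. All cells are of 1 line, at 1 dose and at 1 time point.

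EGF is the founding ligand of the EGF receptor (EGFR, also ERBB1), a receptor tyrosine kinase that pairs with itself or with ERBB2 and ERBB3 after binding. The active receptor signals mainly through the RAS-RAF-MEK-ERK cascade and through PI3K and AKT. ERK induces early transcription factors of the AP-1 and ETS families together with phosphatases and Sprouty proteins that dampen the cascade. In the epidermis this pathway is known to drive proliferation and migration of basal keratinocytes, to promote re-epithelialization of wounds and to restrain terminal differentiation, and inhibition of EGFR in skin is known to raise chemokine and interferon-related transcripts.

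The authors deposited, for each gene, an expected count (an estimate that shares reads between transcripts) and an FPKM value (fragments scaled to transcript length and library size). The 6 libraries held 20288417 to 21320994 expected counts and listed 14078 to 14401 genes each, so that a count of 3 corresponded to 0.141 to 0.148 CPM (counts scaled to library size). Levels are given below as FPKM, in the order of replicates 1, 2 and 3. Changes are log2 fold changes of EGF against untreated ± SE from edgeR's quasi-likelihood test on the counts. A gene is said to have risen or fallen, or to be a differentially expressed gene (DEG), where the adjusted p was at most 0.05 and the log2 fold change at least 0.5 in either direction. All 7 keratinocyte markers examined had at least 1 FPKM in all 6 libraries, and their summed level was 5532 to 6125 FPKM in untreated and 4718 to 4847 FPKM in EGF-treated cells. The markers of melanocytes, fibroblasts and endothelial cells summed to at most 2.56 FPKM in any library. Among immune and smooth muscle markers, CD68 (6.61, 6.82 and 6.53 FPKM untreated, 11.3, 10.1 and 11.1 FPKM with EGF) and ACTA2 (3.28, 3.21 and 2.87 and 1.17, 1.69 and 1.14 FPKM) stood above 1 FPKM, and the part of other cells in the results was not tested. The humanin-like MTRNR2L genes, whose sequence resembles mitochondrial ribosomal RNA, took 1.12% to 1.23% of the counts in the untreated libraries and 0.646% to 0.758% in the EGF libraries, and the part of this difference in the results was not tested.

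Of 12394 genes tested, 4578 (36.9%) were DEGs, of which 1875 (15.1%) were higher and 2703 (21.8%) lower with EGF. Counts of list members below are to be set against these shares of all genes. The lower genes also included more of the large changes. A log2 fold change of at least 1 was met by 529 higher and 1363 lower genes, and one of at least 3 by 48 higher and 137 lower genes. The genes that rose were on the whole more abundant, with a median level of 14.7 FPKM, against 3.99 FPKM for the genes that fell and 12.6 FPKM for the rest. In terms of the whole transcriptome, the higher genes together held 12.5% to 13.2% of the summed TPM (FPKM rescaled to the same total in each library) in the untreated libraries and 22.3% to 22.6% in the EGF libraries. The lower genes went from 17.0% to 17.6% down to 8.41% to 8.66%. The higher genes made up 41.0% of the DEGs, a share that was 30.2% with upper-quartile in place of TMM scaling, which moved the median change over all tested genes from -0.01 to -0.12 in log2.

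**Figure D1:**
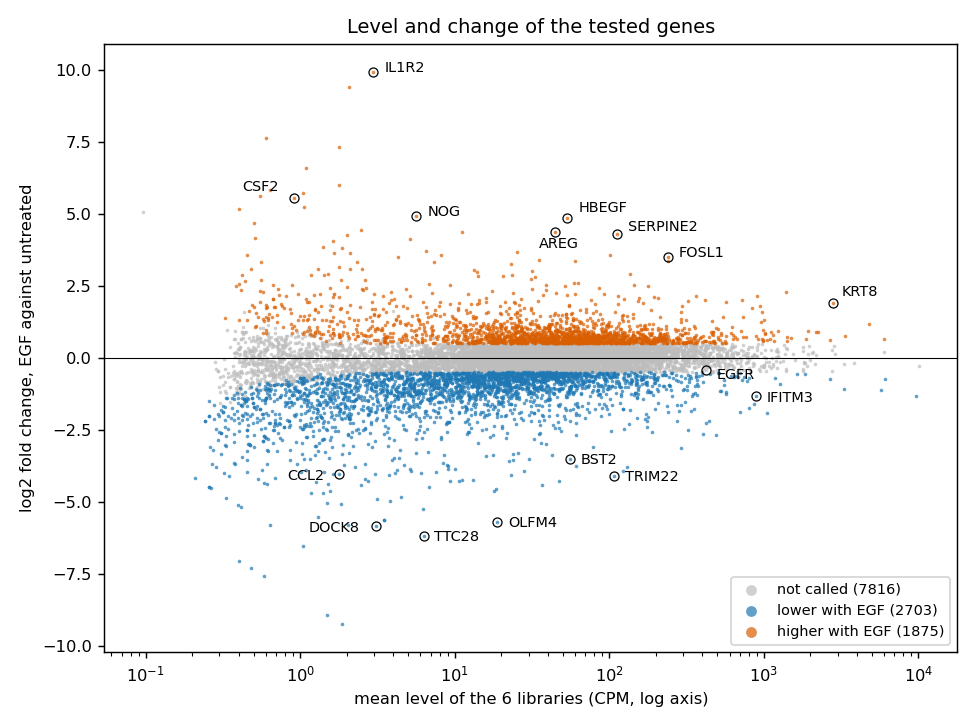
Log2 fold change of EGF-treated against untreated HaCaT cells (vertical axis) against the mean level of the 6 libraries in CPM (horizontal log axis), with 1 point per tested gene, coloured by call. Higher genes (1875) and lower genes (2703) are found at all levels, and the largest falls lie at low and middle levels, as for OLFM4 and TTC28.

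The single largest rises among DEGs of at least 50 counts on average and without overlap between the groups were those of 10 genes of unlike function. IL1R2, the decoy receptor of interleukin-1, had no count in any untreated library and 105, 120 and 136 counts with EGF, an at least 40.2-fold rise when measured against 3 counts per library. NOG, which encodes the BMP antagonist noggin, stood at 0.19, 0.19 and 0.21 FPKM in the untreated and 4.28, 7.28 and 5.82 FPKM in the EGF libraries (log2FC 4.92 ± 0.28). FST, the activin antagonist follistatin, went from 7.29, 9.32 and 8.97 to 102, 90.4 and 104 FPKM (3.58 ± 0.14). That every EGF library lay above every untreated library was a condition of the choice of these genes. The other members of this group were HBEGF (4.87), AREG (4.37), COL13A1 (4.36), a transmembrane collagen, SERPINE2 (4.30), a protease inhibitor, OSBP2 (4.14), an oxysterol-binding protein, SPRR1B (3.71), a cornified envelope precursor, and NAV3 (3.66).

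The deepest falls by the same rule belonged to genes of unlike function. TTC28 had 1.07, 1.18 and 0.94 FPKM untreated and 0.01, 0.03 and 0 FPKM with EGF (-6.18 ± 0.36). OLFM4, a secreted glycoprotein of epithelia, had 12.8, 14.8 and 11.5 and 0.12, 0.37 and 0.23 FPKM (-5.70 ± 0.25). DIO2, which converts thyroxine to the active thyroid hormone, had 1.01, 1.31 and 1.0 and 0.01, 0.04 and 0.02 FPKM (-5.64 ± 0.30). All of these were close to absent in every EGF library. DOCK8, an exchange factor for CDC42, changed by -5.85, PSG5 by -5.63, the cytochrome P450 gene CYP4B1 by -5.26, FGF1 by -4.96, the aldehyde dehydrogenase ALDH3B2 by -4.90, NAALADL2 by -4.85 and the proton pump subunit ATP6V1B1 by -4.62. FGF1 is a broad ligand of fibroblast growth factor receptors.

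Genes of the EGF family itself changed most among the signalling lists. Of 10 ligand genes, 8 were tested, 6 rose and 1 fell, and their median change was 1.53 in log2, against -0.01 over all tested genes. HBEGF encodes heparin-binding EGF-like growth factor, a membrane-anchored ligand that is shed in wounds. It was measured at 1.22, 1.43 and 1.98 FPKM in the untreated libraries and at 42, 45.1 and 42.8 FPKM in the EGF libraries (log2FC 4.87 ± 0.19, edgeR adjusted p = 6.2e-10). AREG, the amphiregulin gene, an autocrine ligand of keratinocytes, stood at 2.96, 3.52 and 3.71 FPKM untreated and 66.6, 67.6 and 66.9 FPKM with EGF (4.37 ± 0.12). In both cases the lowest EGF library was over 10 times the highest untreated library. EREG, which encodes epiregulin, went from 1.02, 0.92 and 1.0 to 8.41, 9.45 and 8.94 FPKM (3.25 ± 0.24), and TGFA, the gene of transforming growth factor alpha, from 7.16, 7.49 and 8.29 to 34.2, 33.3 and 35.5 FPKM (2.23 ± 0.09). Smaller rises were found for NRG1 (0.84 ± 0.09), a ligand of ERBB3 and ERBB4, and for EPGN (0.81 ± 0.23), which encodes epigen. BTC, the betacellulin gene, fell by 2.12 on the log2 scale, from 1.37, 1.25 and 0.83 to 0.20, 0.32 and 0.25 FPKM. EGF itself was listed at no more than 0.04 FPKM in any of the 6 libraries and was not tested. Summed over the family, ligand transcripts amounted to 41.9 to 46.8 FPKM in untreated and 198 to 202 FPKM in EGF-treated cells.

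The ligands are released from the membrane by ADAM sheddases. ADAM19 rose from 1.21, 1.24 and 1.42 to 6.8, 10.2 and 8.74 FPKM (2.79 ± 0.14) and ADAM8 from 17, 15.8 and 16.9 to 82.6, 98.3 and 91.2 FPKM (2.51 ± 0.08). The main sheddases of EGFR ligands behaved otherwise. ADAM17 gave 17.5, 16.2 and 17.9 FPKM untreated and 14.6, 15.1 and 14.4 FPKM with EGF, a log2 fold change of -0.16 ± 0.06 that did not reach the limit. ADAM10 fell from 58.5, 58 and 61.8 to 40.7, 38.3 and 40.1 FPKM (-0.52 ± 0.06), just past the limit and inside it at -0.497 without untreated replicate 3 and at -0.485 without EGF replicate 2. RHBDF1, an iRhom that brings ADAM17 to the cell surface, fell by 0.64 on the log2 scale.

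The receptors moved in the opposite direction to their ligands. EGFR was the most abundant receptor of the family, at 84.5, 78.2 and 83 FPKM in the untreated and 66.5, 52 and 56.8 FPKM in the EGF libraries. The groups did not overlap, as was the case for 70.4% of all tested genes. The log2 fold change of EGFR, -0.43 ± 0.10, stayed inside the limit of 0.5 (edgeR adjusted p = 0.002), so that it is not a DEG. It passed the limit at -0.54 with upper-quartile scaling and at -0.54 without EGF replicate 1. ERBB2, the co-receptor without a ligand of its own, fell from 54.8, 52.3 and 53.7 to 25.3, 21.1 and 22.2 FPKM (-1.17 ± 0.10). ERBB3, the neuregulin receptor, fell from 16, 15.5 and 15.1 to 7.15, 8.95 and 8.07 FPKM (-0.97 ± 0.09), and ERBB4, at 0.13 FPKM or less throughout, fell as well (-2.16 ± 0.41). Among inhibitors, ERRFI1 (MIG6), which binds and blocks the EGFR kinase, rose (0.79 ± 0.07), as did the ubiquitin ligase gene CBL (0.64 ± 0.07), while its relative CBLB fell (-1.27 ± 0.07). The LRIG genes, of which LRIG1 is known to promote receptor turnover, gave log2 fold changes between -0.27 and -0.12 and none passed.

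Feedback genes of the ERK pathway rose in part. Of 13 tested, 6 rose (46.15%) and none fell, with a median of 0.51, where 15.1% of all genes rose. DUSP6, a phosphatase specific for ERK in the cytoplasm, stood at 18, 17 and 19.7 FPKM untreated and 77.1, 68.8 and 74 FPKM with EGF (2.07 ± 0.07). DUSP5, its nuclear counterpart, went from 2.22, 2.55 and 2.14 to 8.95, 8.6 and 9.3 FPKM (2.02 ± 0.11), and SPRY4, a Sprouty inhibitor, from 0.49, 0.46 and 0.57 to 2.35, 2.25 and 2.36 FPKM (2.24 ± 0.15). These genes were thus raised at 24 h in all 3 EGF libraries, and no earlier time was measured. DUSP4 (1.66 ± 0.09), DUSP7 (1.52 ± 0.11) and DUSP1 (0.51 ± 0.18) completed the group, although the call of DUSP1 was lost without untreated replicate 2 or 3 or without EGF replicate 3 (edgeR adjusted p = 0.0516, 0.0792 and 0.0833). The remaining Sprouty and SPRED genes were not called, with SPRY1 at 0.17 and SPRY2 at 0.21.

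**Figure D2:**
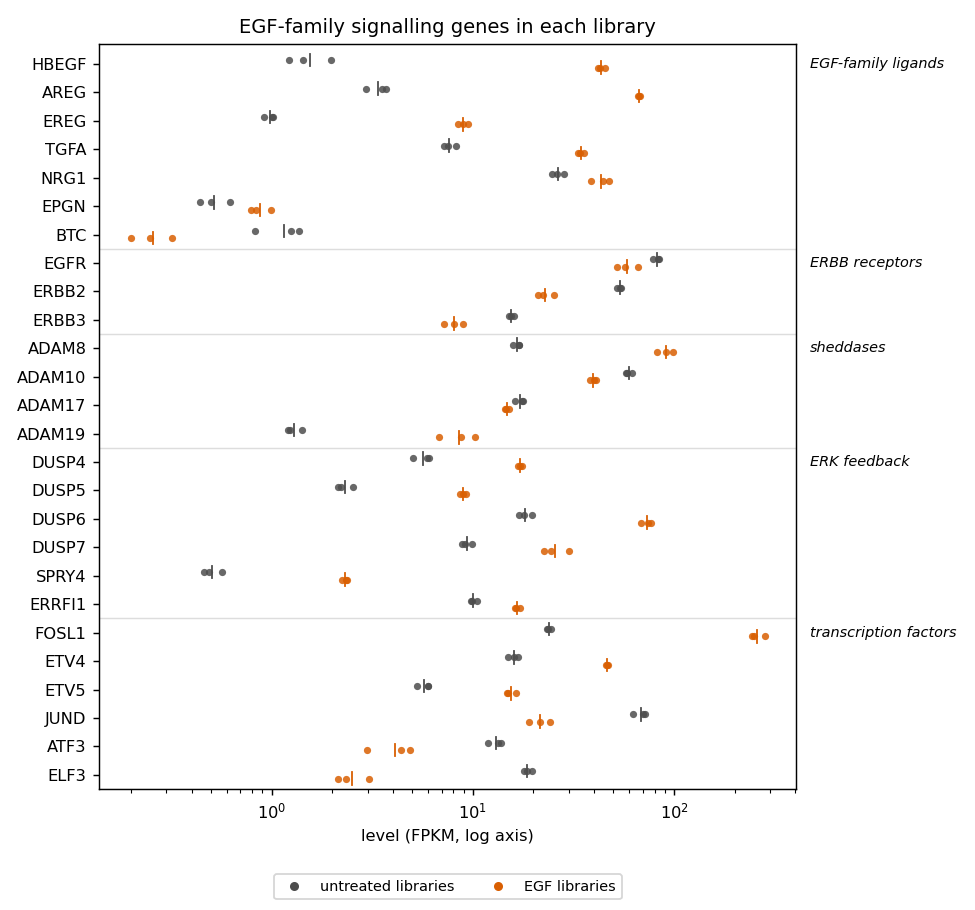
Levels of EGF-family signalling genes in FPKM (horizontal log axis) in each of the 6 libraries, with 1 point per library, a bar at each group mean, untreated libraries in grey and EGF libraries in orange. HBEGF and AREG show the widest gaps among the ligands, whereas EGFR, ERBB2 and ERBB3 lie lower with EGF.

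Transcription factors downstream of ERK did not move together. Of 9 AP-1 genes tested, 3 rose (33.3%) and 4 fell (44.4%), beside 15.1% and 21.8% of all genes. FOSL1, which encodes FRA-1 and lies at chr11:65892049-65900573 on GRCh38, went from 23.3, 23.5 and 24.6 to 282, 251 and 244 FPKM (3.50 ± 0.13, edgeR adjusted p = 6.2e-10) and was the most abundant AP-1 transcript with EGF. In untreated cells the most abundant were JUNB (70.02, 71.5 and 65.9 FPKM) and JUND (70.3, 72 and 62.5 FPKM). JUND fell to 18.9, 24.3 and 21.6 FPKM (-1.59 ± 0.15), while JUNB was not called (0.27 ± 0.06). JUN (0.94 ± 0.09) and MAFF (1.02 ± 0.09) rose, and ATF3 (-1.60 ± 0.20) and FOSL2 (-0.74 ± 0.09) fell. FOS also fell (-0.53 ± 0.19), a call that was lost without untreated replicate 1 or 2 or without EGF replicate 2 (edgeR adjusted p = 0.0558, 0.0924 and 0.103). FOS and FOSB, which respond within minutes of a stimulus, were at 1.8, 1.12 and 1.72 and 2.34, 2.42 and 2.05 FPKM with EGF at this time. Among ETS factors, the PEA3 group members ETV4 (16.9, 14.9 and 16.1 to 46.3, 47.2 and 45.8 FPKM, 1.60 ± 0.07), ETV5 (1.49 ± 0.09) and ETV1 (1.12 ± 0.11) all rose, together with ETS1 (1.18 ± 0.10) and ELK3 (0.73 ± 0.07). ELF3, an ETS factor of differentiating epithelia, fell from 17.9, 18.5 and 19.6 to 2.34, 3.06 and 2.15 FPKM (-2.82 ± 0.14). Of the early response genes, EGR2 (-1.60 ± 0.32) and EGR3 (-1.68 ± 0.36) fell from below 1 FPKM, and EGR1 (-0.20 ± 0.08) and MYC (0.07 ± 0.09) were not called.

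Secreted factors that act on neighbouring cells followed. Among 13 tested growth factors of wounds, 6 rose (46.15%) and 4 fell (30.8%), beside 15.1% and 21.8% of all genes. VEGFA, the main angiogenic factor of keratinocytes, went from 24.5, 22.4 and 26.5 to 95.6, 107 and 100 FPKM (2.13 ± 0.09), and VEGFC from 4.94, 5.33 and 5.14 to 22.8, 18.2 and 20.3 FPKM (2.06 ± 0.13). PGF, the placental growth factor gene, rose from a low level (0.14, 0.06 and 0.11 to 1.46, 1.67 and 1.79 FPKM, 4.07 ± 0.33), and so did CSF2, the GM-CSF gene (0, 0.07 and 0.07 to 2.32, 2.64 and 2.15 FPKM, 5.56 ± 0.57). In each of these the groups were separated by a wide gap. INHBA, the activin A subunit, also rose (1.65 ± 0.11), as its antagonist FST did. PDGFB rose (0.95 ± 0.10), whereas PDGFC (-1.01 ± 0.10), PDGFD (-0.73 ± 0.14) and CSF1 (-0.85 ± 0.09) fell.

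In the TGF-β list 1 of 17 genes rose (5.88%) and 7 fell (41.2%), beside 15.1% and 21.8% of all genes. TGFBR1, the type I receptor, rose from 6.71, 6.56 and 7.94 to 11.4, 13.3 and 13.3 FPKM (0.90 ± 0.08). The ligands TGFB2 (-1.13 ± 0.09) and TGFB3 (-1.23 ± 0.31), and the latent binding proteins LTBP2 (-1.14 ± 0.15) and LTBP3 (-0.78 ± 0.09) fell. TGFB1, the most abundant ligand, was measured at 30.5, 30.6 and 28.5 FPKM untreated and 43.1, 33.8 and 35.3 FPKM with EGF and was not called (0.39 ± 0.09). BMP signalling genes showed a rise of antagonists beside a fall of targets. NOG, FST and the ligand BMP4 (1.24 ± 0.11) rose. Of the ID genes, direct targets of BMP signals that hold back differentiation, ID1 fell from 26.4, 30.4 and 32.1 to 17.7, 17.1 and 17.6 FPKM (-0.69 ± 0.09) and ID3 from 46.3, 49.4 and 47.2 to 25.8, 29.7 and 25.3 FPKM (-0.75 ± 0.08). ID4 fell from a low level (-2.21 ± 0.58) and ID2 was not called (-0.61 ± 0.27, edgeR adjusted p = 0.06), although it passed in a fit to the 6 libraries alone (edgeR adjusted p = 0.0468) and with upper-quartile scaling (0.0304). SMAD6, an inhibitory SMAD induced by BMP, fell from 2.78, 2.99 and 2.81 to 0.31, 0.59 and 0.56 FPKM (-2.49 ± 0.23).

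Of 12 Notch pathway genes 2 rose (16.7%) and 4 fell (33.3%), beside 15.1% and 21.8% of all genes. NOTCH1 (-0.74 ± 0.09), NOTCH3 (-1.55 ± 0.14), JAG2 (-0.87 ± 0.10) and the target HES1 (-0.64 ± 0.10) fell, whereas DLL1 (0.78 ± 0.08) and HEY1 (2.22 ± 0.24) rose. The list of YAP and TEAD, the effectors of the Hippo pathway, holds YAP1, WWTR1, TEAD1 and TEAD4 themselves beside targets. Of 14 tested, 4 were higher (28.6%) and 1 lower (7.14%), beside the same shares of all genes. The sign of the median changed with the scaling. AXL (1.57 ± 0.09), WWTR1 (1.17 ± 0.06), which encodes TAZ, and the tissue factor gene F3 (142, 134 and 146 to 292, 255 and 276 FPKM, 1.03 ± 0.08) rose, and CYR61 fell (-0.73 ± 0.09). The targets CTGF (-0.04) and ANKRD1 (-0.14) were not called.

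The genes for attachment to the basement membrane and for pericellular proteolysis included some of the strongest rises of abundant transcripts. Laminin-332, the laminin that anchors basal keratinocytes and that migrating cells deposit on the wound bed, holds the chains encoded by LAMA3 and LAMB3. LAMA3 went from 50.6, 48.9 and 52.8 to 185, 212 and 201 FPKM (2.00 ± 0.06) and LAMB3 from 177, 174 and 181 to 224, 304 and 274 FPKM (0.65 ± 0.09). Both were higher in every EGF library than in any untreated one, where 70.4% of all tested genes showed no overlap in either direction. Of the chains of other laminins LAMB2, LAMA5 and LAMB1 fell and LAMC1 was not called (-0.20 ± 0.07). The values were, for LAMB2, 55.7, 49.2 and 50.7 FPKM untreated and 11.6, 7.22 and 9.06 FPKM with EGF (-2.42 ± 0.18), and the log2 fold changes of LAMA5 and LAMB1 were -0.98 and -0.63. The hemidesmosome genes COL17A1 (0.66 ± 0.06) and PLEC (1.72 ± 0.10) rose and DST, the gene of BPAG1, fell (-1.09 ± 0.11).

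Integrins are the cell surface receptors of laminin, collagen and fibronectin. Of 11 tested, 5 rose (45.45%) and none fell, where 15.1% of all genes rose. ITGA6, a laminin receptor subunit, rose from 103, 99.9 and 101 to 261, 220 and 239 FPKM (1.30 ± 0.07), ITGA3, its counterpart in focal adhesions, from 102, 100 and 97.8 to 192, 174 and 178 FPKM (0.92 ± 0.06), and ITGB1 from 141, 144 and 155 to 230, 230 and 235 FPKM (0.72 ± 0.05). ITGA5, the fibronectin receptor subunit of wound keratinocytes, rose from 8.84, 8.0 and 9.07 to 16.5, 18.2 and 16.3 FPKM (1.04 ± 0.07). ITGB4, the hemidesmosome subunit, was not called (0.31 ± 0.08).

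In the plasminogen system 5 of 9 genes rose (55.6%) and 1 fell (11.1%), beside 15.1% and 21.8% of all genes. SERPINE2, or protease nexin 1 (chr2:223975045-224039318 on GRCh38), went from 4.86, 4.05 and 6.06 to 94.1, 94.5 and 93.3 FPKM (4.30 ± 0.20). The urokinase receptor gene PLAUR rose from 8.97, 8.7 and 8.48 to 37.1, 45.9 and 43.6 FPKM (2.35 ± 0.10) and SERPINB2 (PAI-2) from 28.5, 28.3 and 24.4 to 81.5, 106 and 92.8 FPKM (1.85 ± 0.11). The receptor and these inhibitors thus rose while urokinase itself, PLAU, was not called (72.9, 75.2 and 71.9 to 70.7, 74.5 and 74.9 FPKM), and tissue plasminogen activator PLAT fell (-1.33 ± 0.11). The matrix metalloproteinases were divided, with 5 of 15 MMP and TIMP genes higher (33.3%) and 7 lower (46.7%), beside the same shares of all genes. MMP1, the collagenase of migrating keratinocytes, rose from 3.78, 3.45 and 3.09 to 30.8, 22.4 and 27.5 FPKM (3.03 ± 0.19), MMP9, a gelatinase, from 0.32, 0.26 and 0.50 to 1.12, 2.75 and 1.73 FPKM (2.44 ± 0.35) and TIMP1, an inhibitor, from 140, 154 and 125 to 230, 213 and 205 FPKM (0.71 ± 0.09). MMP13, another collagenase, fell from 31.6, 35.3 and 32.3 to 6.92, 10.9 and 9.09 FPKM (-1.82 ± 0.12) and MMP12, an elastase, from 3.58, 4.65 and 3.86 to 0.43, 0.35 and 0.21 FPKM (-3.55 ± 0.25). MMP15 (-1.69 ± 0.14), MMP10 (-0.99 ± 0.11) and MMP28 (-0.94 ± 0.07) fell as well, and the membrane-type MMP14 and gelatinase MMP2 were not called. Of 9 promoters of this list 2 (22.2%) held the AP-1 letters TGANTCA, which read the same on both strands apart from the free base, where 7.76% of all promoters did. By call, the letters were found in 6.48% of the promoters of higher genes, 5.43% of lower genes and 3.96% of genes not called. The share of the list rests on 2 promoters and its difference from these was not tested.

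Among 20 tested collagens 2 rose (10%) and 8 fell (40%), beside 15.1% and 21.8% of all genes. COL13A1 went from 0.33, 0.34 and 0.39 to 6.64, 7.61 and 7.17 FPKM (4.36 ± 0.14). The fibrillar collagens COL3A1 (-2.98 ± 0.26), COL5A1 (-2.82 ± 0.20) and COL1A1 (-1.67 ± 0.26) fell from levels near 1 FPKM. COL3A1 and COL1A1 are also 2 of the 6 fibroblast markers and made up most of their summed level, which was 1.42 to 1.8 FPKM untreated and 0.23 to 0.33 FPKM with EGF. Of the remaining markers, DCN went from 0.07, 0.25 and 0.14 to 0, 0 and 0.01 FPKM, LUM from 0.05, 0.10 and 0.12 to 0 in all 3 EGF libraries, and COL1A2 and PDGFRA were at 0.03 FPKM or less. The part of fibroblasts in these falls was not tested. Eph receptors and ephrins, which steer cell sorting by repulsion, showed 3 rises (17.65%) and 7 falls (41.18%) among 17 tested, beside 15.1% and 21.8% of all genes. EFNB1 (1.36 ± 0.09) and EFNB2 (1.33 ± 0.06) rose, and EPHA4 (-2.22 ± 0.21) and EFNA1 (-1.55 ± 0.11), a ligand of EPHA2, fell. Of 18 genes of the actin list 3 rose (16.7%) and 5 fell (27.8%), beside the same shares of all genes, with a median whose sign changed with the scaling. ACTN1 (0.77 ± 0.06), ACTB (0.66 ± 0.07) and FHL2 (0.87 ± 0.10) rose, and the tropomyosins TPM2 (-1.59 ± 0.16) and TPM1 (-0.59 ± 0.12), the smooth muscle actin ACTA2 (-1.17 ± 0.20), MYL9 (-1.56 ± 0.44) and CALD1 (-0.61 ± 0.08) fell, where TPM1 came inside the limit at -0.45 without EGF replicate 1.

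Keratins are the intermediate filaments of epithelia and mark the state of a keratinocyte. KRT5 and KRT14 pair in basal cells, KRT1 and KRT10 in suprabasal cells, KRT6 and KRT16 in wounded epidermis, and KRT8 and KRT18 in simple epithelia. The basal partners moved in opposite directions. KRT5 fell from 3636, 3612 and 3270 to 1589, 1492 and 1560 FPKM (-1.12 ± 0.08), whereas KRT14 rose from 1020, 1082 and 922 to 1788, 1746 and 1782 FPKM (0.88 ± 0.07). KRT15, a keratin of resting basal cells, fell from 250, 246 and 254 to 61, 71.8 and 66.3 FPKM (-1.85 ± 0.14). Of 7 basal and simple-epithelial keratins 3 rose (42.9%) and 4 fell (57.1%), beside 15.1% and 21.8% of all genes. The simple pair rose together, with KRT8 from 677, 673 and 718 to 2178, 2707 and 2435 FPKM (1.89 ± 0.10) and KRT18 from 301, 294 and 305 to 956, 1041 and 1009 FPKM (1.81 ± 0.07). The other simple-epithelial keratins on the list, KRT7 (541, 571 and 550 to 277, 382 and 332 FPKM, -0.68 ± 0.11) and KRT19 (-0.55 ± 0.11), fell, although KRT19 came inside the limit at -0.45 without EGF replicate 1. KRT8 gained more of the transcriptome than any other gene, from a mean of 1469 TPM to 5351 TPM. The wound keratin KRT6A rose from 202, 205 and 194 to 1014, 863 and 929 FPKM (2.29 ± 0.08) and KRT16 from 3.87, 4.61 and 3.55 to 12.2, 17.1 and 15.2 FPKM (1.95 ± 0.14), while KRT17 was not called (-0.46 ± 0.10), although it passed the limit at -0.57 with upper-quartile scaling and at -0.54 without untreated replicate 3. KRT6A, KRT16 and KRT17 have near-identical relatives, so that their reads may have been shared with other genes.

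Suprabasal and late genes lay lower with EGF. KRT1 fell from 3.4, 3.29 and 2.3 to 0.24, 0.14 and 0.12 FPKM (-4.08 ± 0.34), KRT4 to 1.9, 1.55 and 1.75 FPKM (-3.56 ± 0.22) and KRT13 from 1020, 1045 and 967 to 200, 320 and 254 FPKM (-1.90 ± 0.15). KRT10, the partner of KRT1, rose slightly (0.67 ± 0.12). Only 12 of 27 genes of the cornified envelope could be tested, since the others did not pass the count filter, and 6 of these fell and 1 rose. IVL, the involucrin gene, went from 6.92, 7.25 and 6.25 to 0.52, 0.30 and 0.42 FPKM (-3.96 ± 0.32), and TGM1, the transglutaminase that cross-links the envelope, from 4.23, 4.51 and 3.8 to 1.28, 0.97 and 1.17 FPKM (-1.81 ± 0.19). CNFN (-2.36 ± 0.40) and TCHH (-1.33 ± 0.26) fell too. SPRR1B was the 1 tested gene that rose, at 2.15, 1.56 and 1.2 FPKM untreated and 21.7, 21.8 and 17.3 FPKM with EGF (3.71 ± 0.20). The other 5 SPRR genes of the list did not pass the count filter, and the mean of each was higher with EGF, as for SPRR2A (0.32, 0.08 and 0.24 to 0.54, 1.73 and 1.18 FPKM). FLG, the filaggrin gene, was not called (-0.02 ± 0.11).

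The factors that set keratinocyte fate gave 4 rises (33.3%) and 3 falls (25%) among 12, beside 15.1% and 21.8% of all genes. Under upper-quartile scaling 2 were called higher. TP63, the master factor of basal keratinocytes, rose to the limit (0.50 ± 0.08), inside which it came at 0.48 without untreated replicate 2 and at 0.39 without EGF replicate 1. KLF5, a factor of proliferating basal cells, rose from 36.9, 35 and 38.5 to 81.3, 77.7 and 77.8 FPKM (1.18 ± 0.07), and KLF4 rose less (0.69 ± 0.11). ZNF750, a factor of terminal differentiation, fell (-2.52 ± 0.42), as did GRHL2 (-0.62 ± 0.08).

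**Figure D3:**
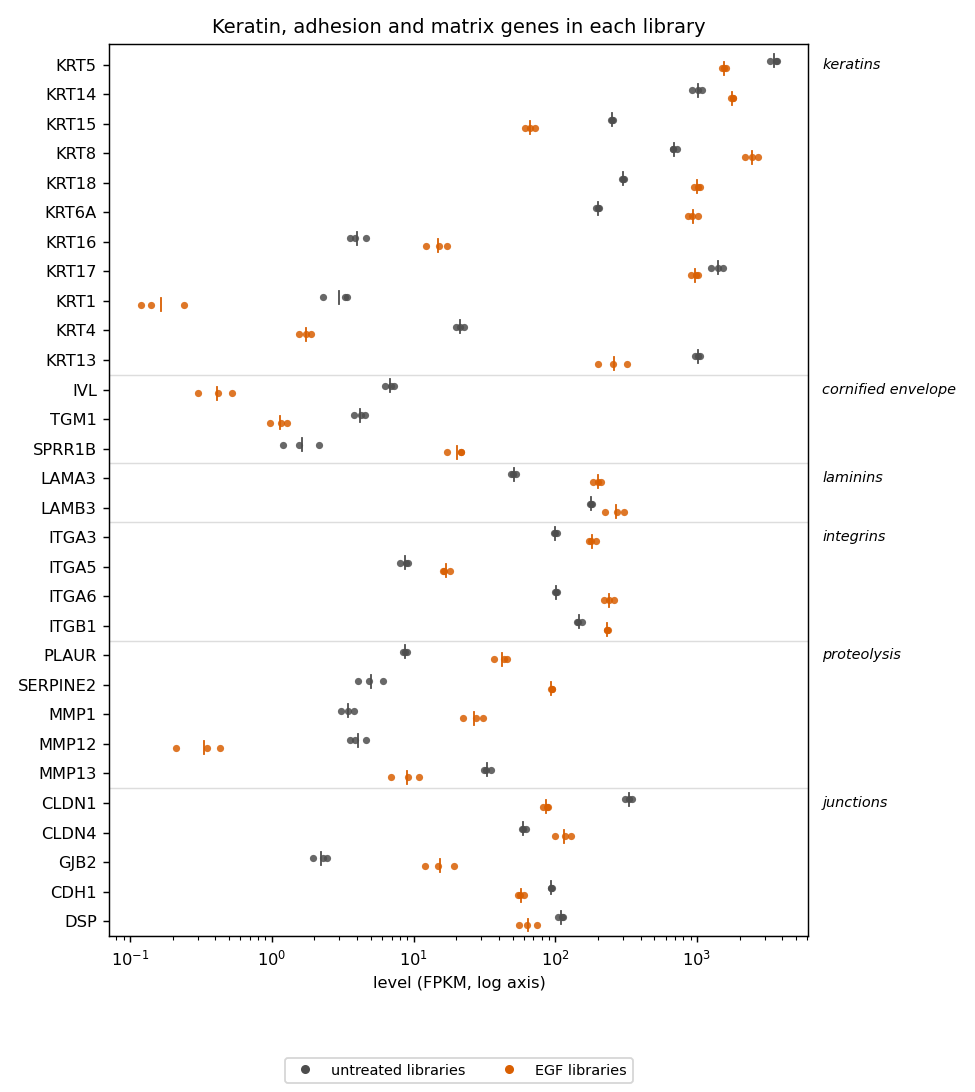
Levels of keratin, adhesion and matrix genes in FPKM (horizontal log axis) in each of the 6 libraries, with 1 point per library, a bar at each group mean, untreated libraries in grey and EGF libraries in orange. KRT5 and KRT14 move in opposite directions, LAMA3 and LAMB3 lie higher with EGF, and KRT1, KRT4 and IVL lie lower.

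Among cell junction genes the gap junction list stood furthest from the shares of all genes. All 6 tested connexin and pannexin genes, which form or resemble gap junction channels, rose, at a median log2 fold change of 1.18. GJB2 (connexin 26), which is known to be raised in wounded and hyperproliferative epidermis, went from 2.44, 1.95 and 2.3 to 19.1, 12 and 14.9 FPKM (2.85 ± 0.17). GJA1, the gene of the main epidermal connexin 43, rose from 20.9, 20.2 and 20.4 to 36.2, 31.4 and 34.4 FPKM (0.79 ± 0.08). Of 12 tight junction genes 2 rose (16.7%) and 3 fell (25%), near the 15.1% and 21.8% of all genes. CLDN1 fell from 346, 331 and 310 to 86.7, 88.7 and 82.2 FPKM (-1.88 ± 0.12) and the scaffold genes TJP3 (-3.85 ± 0.24) and CGN (-1.27 ± 0.09) fell, whereas CLDN4 rose from 61.7, 57.9 and 59.1 to 99.2, 128 and 117 FPKM (1.02 ± 0.10) and CLDN7 rose (0.62 ± 0.08). Among 10 desmosome genes, where the share of lower genes (20%) was likewise near that of all genes, DSP (114, 105 and 111 to 74.3, 55.1 and 63 FPKM, -0.70 ± 0.09) and DSC2 (-0.69 ± 0.05) fell and none rose. E-cadherin (CDH1) fell from 93.3, 94.9 and 93.2 to 54.2, 60.5 and 56.4 FPKM (-0.66 ± 0.07). N-cadherin (CDH2, -0.42 ± 0.06) and fibronectin (FN1, -0.34 ± 0.09) were not called, although CDH2 passed the limit at -0.52 with upper-quartile scaling. Vimentin was too low to be tested.

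Inflammatory genes split by pathway. Within the interleukin-1 family the agonists IL1A (4.84, 4.95 and 5.99 to 13.4, 11.2 and 12.7 FPKM, 1.30 ± 0.15) and IL1B (10.4, 9.11 and 9.78 to 27.5, 23.8 and 23.7 FPKM, 1.43 ± 0.10) rose, the antagonists IL1RN (24.5, 24 and 21.3 to 11.4, 9.7 and 10.9 FPKM, -1.06 ± 0.10) and IL36RN (-2.28 ± 0.29) fell, and the signalling receptor IL1R1 fell (-1.23 ± 0.29) while the decoy IL1R2 appeared. Of 13 NF-κB genes 8 rose (61.5%) and none fell, where 15.1% of all genes rose. TNFAIP3, or A20, an inhibitor induced by the pathway, rose from 3.45, 2.76 and 3.86 to 16.4, 19.8 and 18.2 FPKM (2.49 ± 0.13), BIRC3 from 4.85, 4.37 and 5.51 to 7.3, 22.1 and 16.1 FPKM (1.69 ± 0.31) and NFKB2 from 21.7, 21.2 and 20.8 to 35.5, 75.2 and 55.9 FPKM (1.45 ± 0.20). The EGF libraries differed among themselves in this list more than the untreated ones did, with a summed level of 250 to 374 FPKM against 198 to 206 FPKM. NFKBIA (-0.01 ± 0.09) and NFKB1 (0.13 ± 0.07) were not called.

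In the IL-6 family, LIF (3.93, 3.27 and 3.95 to 8.33, 14.9 and 12.1 FPKM, 1.72 ± 0.17), IL11 (1.26 ± 0.25), CLCF1 (1.23 ± 0.15) and the shared receptor IL6ST (0.59 ± 0.09) rose, as did the feedback inhibitors SOCS1 (1.66, 1.21 and 2.08 to 4.59, 6.38 and 5.42 FPKM, 1.80 ± 0.21), SOCS2 (0.64 ± 0.12) and SOCS3 (1.23 ± 0.12), and LIFR fell (-1.44 ± 0.15). IL6 itself changed by -0.54 ± 0.30 and did not pass, but without EGF replicate 1 it was called lower at -0.87. Of 9 tested chemokines 2 rose (22.2%) and 6 fell (66.7%), beside 15.1% and 21.8% of all genes. The neutrophil attractants CXCL8 (0.12, 0.48 and 0.30 to 1.72, 1.39 and 2.03 FPKM, 2.43 ± 0.39) and CXCL1 (1.10 ± 0.23) rose, and the monocyte and lymphocyte attractants CCL2 (5.12, 6.16 and 3.61 to 0.35, 0.28 and 0.20 FPKM, -4.05 ± 0.34), CCL5 (47, 42.7 and 33.8 to 8.59, 17 and 11.2 FPKM, -1.67 ± 0.21), CXCL16 (-1.62 ± 0.13), CXCL10 (-2.28 ± 0.37) and CX3CL1 (-1.40 ± 0.42) fell. The call of CX3CL1 was lost with DESeq2 in place of edgeR (DESeq2 adjusted p = 0.0525). CCL28 was at 17, 26 and 29 counts in untreated cells and at 0 in all 3 EGF libraries. Most of these chemokines were at low level, CCL5 and CXCL16 excepted, and with at least 10 counts demanded in every library 2 were called lower. Among antimicrobial proteins DEFB1 fell from 10.6, 9.58 and 6.06 to 0.70, 0.46 and 0.66 FPKM (-3.72 ± 0.42), and LCN2 (-0.67 ± 0.13) and SLPI (-0.73 ± 0.17) fell, whereas PI3 (elafin) rose from 0, 0.10 and 0 to 1.14, 1.69 and 1.62 FPKM (5.17 ± 0.71).

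Interferon-stimulated genes fell almost as a whole list. Interferons act through a complex with STAT2 and IRF9 that binds the interferon-stimulated response element (ISRE) in promoters. Of 35 effector genes tested 34 (97.1%) fell and none rose, where 21.8% of all tested genes fell, and the median log2 fold change was -2.19. The list summed to 6933 to 8336 FPKM in the untreated libraries and 2029 to 2213 FPKM in the EGF libraries. The windows of the 6 genes with the deepest falls that hold an ISRE match with room on both sides before the start site are shown, because this element is the known binding site of the factors named above. Capitals mark each match to GAAANNGAAA or its reverse complement TTTCNNTTTC, and the last base of the IFIT3 window opens a match that runs on past it. Positions count from the RefSeq start site on GRCh38.p14, with negative values before it, and sequences read 5′ to 3′ on the strand of the gene.
IFI44L: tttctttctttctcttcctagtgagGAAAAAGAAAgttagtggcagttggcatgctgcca
BST2: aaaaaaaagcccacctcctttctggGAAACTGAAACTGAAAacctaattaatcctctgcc
IFIT1: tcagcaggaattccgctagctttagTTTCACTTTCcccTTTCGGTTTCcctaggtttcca
IFIT3: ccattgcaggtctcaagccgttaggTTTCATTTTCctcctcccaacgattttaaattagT
IFI27: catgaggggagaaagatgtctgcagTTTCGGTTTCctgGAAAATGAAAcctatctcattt
IFI6: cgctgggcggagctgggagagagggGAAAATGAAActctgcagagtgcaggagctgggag

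The windows lie at chr1:78620259-78620318 for IFI44L (plus strand, positions -189 to -130), chr19:17405726-17405785 for BST2 (minus strand, positions -155 to -96), chr10:89392482-89392541 for IFIT1 (plus strand, positions -141 to -82), chr10:89327816-89327875 for IFIT3 (plus strand, positions -181 to -122), chr14:94110603-94110662 for IFI27 (plus strand, positions -133 to -74) and chr1:27672314-27672373 for IFI6 (minus strand, positions -181 to -122). Promoters from 250 bases before to 50 bases after the start were at hand for 28 of the 35 genes in RefSeq, and 20 of these (71.4%) held at least 1 match on either strand, overlapping matches included. Of all 27305 human promoters of this length 3.65% held one. By call, a match was found in 4.87% of the promoters of lower genes, 2.55% of those of higher genes and 2.23% of those of genes not called. A match was found for 19 of 27 lower effectors with a promoter at hand, and also for ISG20, the only effector not called. Among the 19 lower effectors with a match, 17 of 34 matches began within the 100 bases before the start.

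TRIM22, an antiviral ubiquitin ligase, fell the most, from 78.4, 62.7 and 62 to 3.48, 4.01 and 3.82 FPKM (-4.10 ± 0.15, edgeR adjusted p = 5.5e-10), followed by IFI44L (44.8, 38.5 and 36.2 to 2.03, 3.08 and 2.33 FPKM, -3.95 ± 0.15) and XAF1 (78.6, 63.5 and 61 to 4.42, 5.37 and 4.37 FPKM, -3.78 ± 0.14). BST2, or tetherin, which holds budding viruses at the membrane (chr19:17402939-17405630 on GRCh38), fell from 117, 104 and 97.8 to 8.14, 9.0 and 9.38 FPKM (-3.51 ± 0.14). Every EGF library lay several-fold below every untreated one for these genes. IFITM3, which blocks viral entry, went from 2308, 2269 and 1766 to 808, 807 and 755 FPKM (-1.34 ± 0.11), a smaller change than the median of the list, and ISG15, a ubiquitin-like modifier, from 771, 770 and 685 to 135, 163 and 161 FPKM (-2.19 ± 0.11). The sensors of viral RNA products IFIT1 (-3.13 ± 0.07) and OAS1 (-2.59 ± 0.08) and the GTPase genes MX1 (-3.29 ± 0.15) and MX2 (-3.77 ± 0.16) fell as well. ISG20 was the only member not called (6.25, 6.79 and 6.65 to 5.29, 7.01 and 6.15 FPKM, -0.03 ± 0.13). In cells treated with bleogen pB1, measured against the same untreated libraries, 21 of the 35 were lower and none was higher, where 1.26% of all tested genes were lower.

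**Figure D4:**
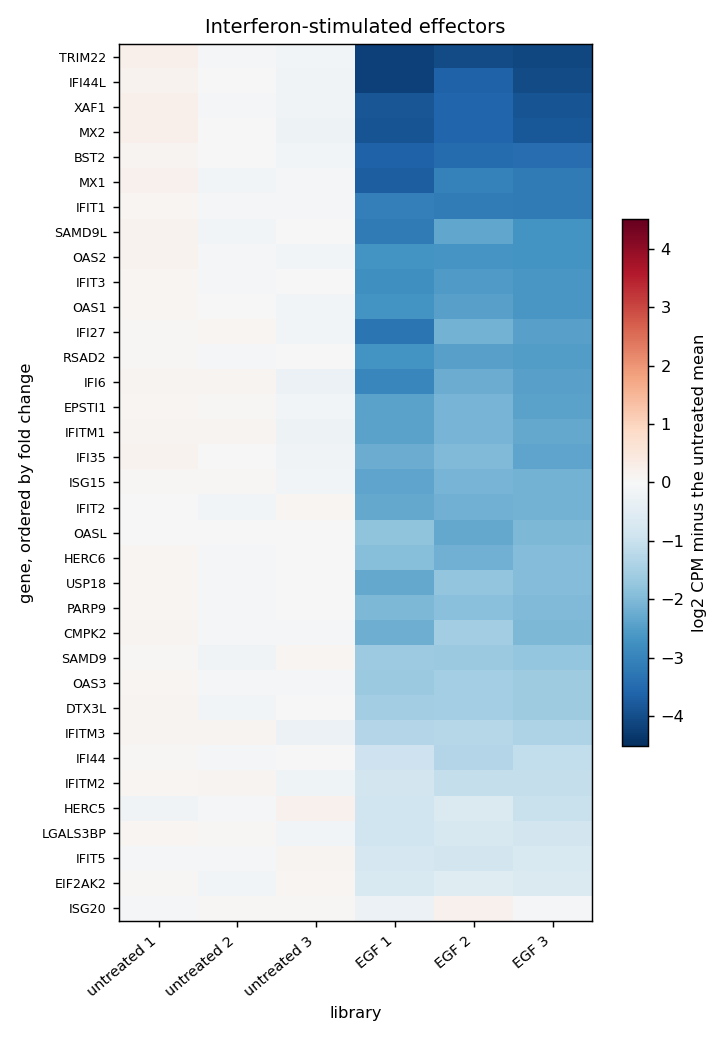
Level of each of 35 interferon-stimulated effector genes (rows, ordered by fold change) in each of the 6 libraries (columns), as log2 CPM minus the mean of the untreated libraries, blue for lower and red for higher. The 3 EGF columns are blue for 34 genes, deepest for TRIM22 and IFI44L, and near white for ISG20.

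Of 22 interferon receptors, sensors and transcription factors 11 fell (50%) and 2 rose (9.09%), beside 21.8% and 15.1% of all genes. Among the factors STAT2 went from 59.2, 53.3 and 51.4 to 10.03, 14.2 and 12.4 FPKM (-2.10 ± 0.12), IRF9 from 70.7, 66.6 and 64.4 to 19, 25.7 and 20.3 FPKM (-1.57 ± 0.10) and IRF7 from 81.7, 72.8 and 69.9 to 13.3, 22.5 and 16.8 FPKM (-2.03 ± 0.14), whereas IRF2 (-0.36 ± 0.07) and IRF3 (0.42 ± 0.07) were not called. Of the sensors of foreign nucleic acid, IFIH1 (MDA5, -1.56 ± 0.12), DDX58 (RIG-I, -0.96 ± 0.06), DHX58 (-1.98 ± 0.10), TLR3 (-1.44 ± 0.10) and TMEM173 (STING, -1.17 ± 0.13) fell, whereas the DNA sensor CGAS rose from 8.08, 7.68 and 8.53 to 14.5, 16.6 and 16.1 FPKM (1.02 ± 0.12). No interferon receptor was called lower. IFNAR1 (0.12 ± 0.07) and IFNGR1 (0.26 ± 0.10) were not called, and IFNGR2 was called higher at the limit (0.50 ± 0.07), a call lost without untreated replicate 3 (0.45) or EGF replicate 1 (0.48) and with upper-quartile scaling (0.40). Of 14 promoters of this list 2 (14.3%) held an ISRE match.

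MHC class I presentation, which shows peptides of the cell to T cells, fell in 15 of 17 genes at a median of -0.88, and 6 of these fell by at least 1 on the log2 scale. B2M, the light chain, went from 1961, 1869 and 1622 to 902, 963 and 913 FPKM (-0.90 ± 0.08), HLA-B from 317, 326 and 290 to 120, 178 and 152 FPKM (-0.99 ± 0.12) and HLA-F from 41.3, 39.4 and 37.7 to 7.67, 12.3 and 10.5 FPKM (-1.89 ± 0.15). The immunoproteasome subunits PSMB9 (58.6, 57 and 47.5 to 17.5, 22.8 and 18.4 FPKM, -1.40 ± 0.12), PSMB10 (-1.14 ± 0.13) and PSMB8 (-0.75 ± 0.07) fell, and so did NLRC5 (-1.17 ± 0.10), the activator of class I genes. TAP2 was not called (0.26 ± 0.07), while TAP1 fell (-0.73 ± 0.12). The HLA heavy chain genes are near-identical in part, so that their single values are uncertain. Of 14 class I promoters 9 (64.3%) held an ISRE match. Complement genes fell in 8 of 11, among them C3 (26.5, 25.7 and 23.2 to 9.75, 8.85 and 9.51 FPKM, -1.36 ± 0.10), C1R (-2.08 ± 0.13) and CFB (-2.09 ± 0.22), and the protective membrane protein CD55 rose from 7.52, 8.0 and 7.83 to 15.7, 13.3 and 13.1 FPKM (1.05 ± 0.10).

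Genes of cell death gave rises and falls. TNFSF10, the TRAIL gene, fell from 45.2, 40.2 and 39.5 to 3.4, 4.08 and 3.95 FPKM (-3.38 ± 0.13), while its receptors TNFRSF10A (7.72, 6.92 and 8.47 to 17.7, 23.9 and 22.9 FPKM, 1.55 ± 0.13) and TNFRSF10B (0.82 ± 0.09) rose. Of 13 BCL2 relatives 2 rose (15.4%) and 4 fell (30.8%), beside 15.1% and 21.8% of all genes. BCL2L1, which encodes the survival protein BCL-XL, rose from 52.1, 51.6 and 48.4 to 76.5, 89.2 and 79.4 FPKM (0.74 ± 0.07), and the death-promoting BAX also rose (0.77 ± 0.09). The BH3-only genes BMF (2.86, 2.51 and 2.29 to 0.14, 0.21 and 0.11 FPKM, -4.00 ± 0.31), BBC3 (-0.90 ± 0.15), BCL2L11 (-0.83 ± 0.10) and HRK (-0.96 ± 0.28) fell, whereas PMAIP1 (0.43 ± 0.07), BID (-0.24 ± 0.06), BAD (0.30 ± 0.10) and BIK (0.15 ± 0.14) were not called. HRK lay at a low level, with means of 0.19 FPKM untreated and 0.10 FPKM with EGF. Its call was lost with DESeq2 in place of edgeR (DESeq2 adjusted p = 0.0588).

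Metabolic genes were higher for glycolysis and lower for fatty acid desaturation. Of 21 glycolysis and lactate genes 11 rose (52.4%) and 1 fell (4.76%), at a median of 0.56, beside 15.1% and 21.8% of all genes. The lactate exporter SLC16A3 (MCT4) rose from 20.3, 19.7 and 18.7 to 37.5, 51.7 and 44.9 FPKM (1.25 ± 0.10), the hexokinase HK2 from 3.97, 3.6 and 4.1 to 11.5, 9.59 and 10.7 FPKM (1.51 ± 0.12) and LDHA from 352, 378 and 363 to 699, 605 and 634 FPKM (0.89 ± 0.09). The abundant enzymes PKM (0.75 ± 0.06) and ENO1 (0.66 ± 0.07) rose by less than 2-fold and GAPDH was not called (0.19 ± 0.06). Of 17 fatty acid genes 7 fell (41.2%) and 1 rose (5.88%). SCD, the desaturase that makes oleate, fell from 2701, 2478 and 2574 to 973, 1015 and 985 FPKM (-1.32 ± 0.10) and its mean TPM fell by 3329. SREBF1 (-0.76 ± 0.09), FADS1 (-0.81 ± 0.06), FADS2 (-0.85 ± 0.10) and ACSL1 (-0.88 ± 0.08) fell. Among 24 genes of cholesterol synthesis and its sterol-regulated relatives 2 rose and 1 fell, below the background of all genes, with HMGCS1 at 0.15 and SQLE at 0.24. For bleogen pB1, against the same untreated libraries, 10 of these 24 were lower, where 1.26% of all tested genes were. Of 18 promoters of the list 1 (5.56%) held the sterol element letters TCACNCCAC on either strand, where 1.15% of all promoters did. The difference rests on 1 promoter and was not tested.

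Genes for making ribosomes and proteins rose broadly and by small amounts. Of 36 nucleolar genes of ribosome biogenesis 25 rose (69.4%) and none fell, where 15.1% of all genes rose, at a median of 0.65. LYAR went from 18.4, 17.1 and 19.5 to 48, 37.3 and 37.5 FPKM (1.21 ± 0.13), EBNA1BP2 from 80.6, 87.1 and 91.6 to 171, 159 and 167 FPKM (1.01 ± 0.07) and the helicase gene DDX21 from 70.3, 65.5 and 77.2 to 136, 119 and 127 FPKM (0.91 ± 0.09). The ribosomal proteins themselves did not rise with them, with 1 of 82 higher and 2 lower. Their median was -0.17, and their summed level was 83420 to 96360 FPKM in the untreated libraries and 73480 to 75550 FPKM in the EGF libraries. Of 20 cytosolic tRNA synthetases 10 rose and none fell, for example GARS (145, 135 and 154 to 231, 257 and 234 FPKM, 0.79 ± 0.09), and 18 of 34 constitutive proteasome subunits rose and none fell, led by PSMD12 (21.9, 21.9 and 24.6 to 45.2, 50.2 and 48.9 FPKM, 1.14 ± 0.09) and PSMC4 (1.01 ± 0.08). In the ATF4 list, which supplies amino acids under stress, 10 of 25 rose, among them MTHFD2 (20.1, 20.5 and 27.1 to 44.3, 49.95 and 52.2 FPKM, 1.18 ± 0.14), STC2 (1.79 ± 0.15) and CHAC1 (1.79 ± 0.30), although ATF4 itself was not called (0.28 ± 0.06). The polyamine enzymes ODC1 (41.4, 41.5 and 44.1 to 97.5, 54.4 and 77.5 FPKM, 0.91 ± 0.16) and SRM (1.11 ± 0.10), a classic growth response, rose and the catabolic SAT1 fell (-0.72 ± 0.15). Most of these rises lay near the limit. With a log2 fold change of at least 1 demanded, 2 nucleolar, 2 proteasome and no tRNA synthetase genes remained, and with upper-quartile scaling 6 tRNA synthetases were called higher.

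Proliferation genes rose to a lesser extent. Of 45 genes of DNA replication 13 rose (28.9%) and 1 fell (2.22%). Of 32 genes of G2 and mitosis 12 rose (37.5%) and none fell, where 15.1% of all genes rose and 21.8% fell. The medians of these lists were 0.27 and 0.37, and with upper-quartile scaling 0.17 and 0.27. RRM2, a subunit of ribonucleotide reductase, went from 56.7, 56.9 and 61.8 to 113, 100 and 106 FPKM (0.92 ± 0.10), MCM10 from 10.5, 10.00 and 11.7 to 20.8, 17.8 and 19.2 FPKM (0.91 ± 0.10), AURKA from 46, 48.3 and 52.9 to 91.6, 82.5 and 86 FPKM (0.88 ± 0.11) and CDC20 from 132, 135 and 136 to 221, 221 and 218 FPKM (0.78 ± 0.08). The proliferation marker MKI67 stood at 39.5, 35.4 and 41.1 FPKM untreated and 51.6, 42.5 and 43.5 FPKM with EGF and was not called (0.30 ± 0.09), nor was PCNA (0.27 ± 0.07). CCNE1, the cyclin of the G1/S transition, rose (1.15 ± 0.20). With a log2 fold change of at least 1 demanded, 1 replication gene and no mitosis gene remained. CDK inhibitors moved apart. CDKN1A (p21) rose from 35.5, 36.4 and 34.7 to 72.2, 123 and 94.8 FPKM (1.51 ± 0.14) and CDKN2D from 4.43, 5.78 and 5.36 to 11.5, 19.1 and 16.2 FPKM (1.66 ± 0.23), while CDKN2B (p15) fell from 21.9, 21.1 and 20.2 to 5.37, 6.38 and 6.24 FPKM (-1.75 ± 0.14), CDKN2A from 150, 156 and 136 to 71.5, 67.8 and 66.6 FPKM (-1.03 ± 0.09) and CDKN1B (p27) by 0.68 on the log2 scale.

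Across the 56 lists, which hold 1047 tested genes, the share called higher or lower ran from all tested members in one direction to shares below those of all genes. The interferon effectors, MHC class I and complement stood at the lower end, and the connexins, ribosome biogenesis, EGF ligands and NF-κB genes at the upper end. Several abundant lists, such as ribosomal proteins, respiratory chain subunits and cholesterol synthesis, held fewer called genes than the 36.9% of all genes. Of the 4578 DEGs, 4100 belonged to none of these lists.

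**Figure D5:**
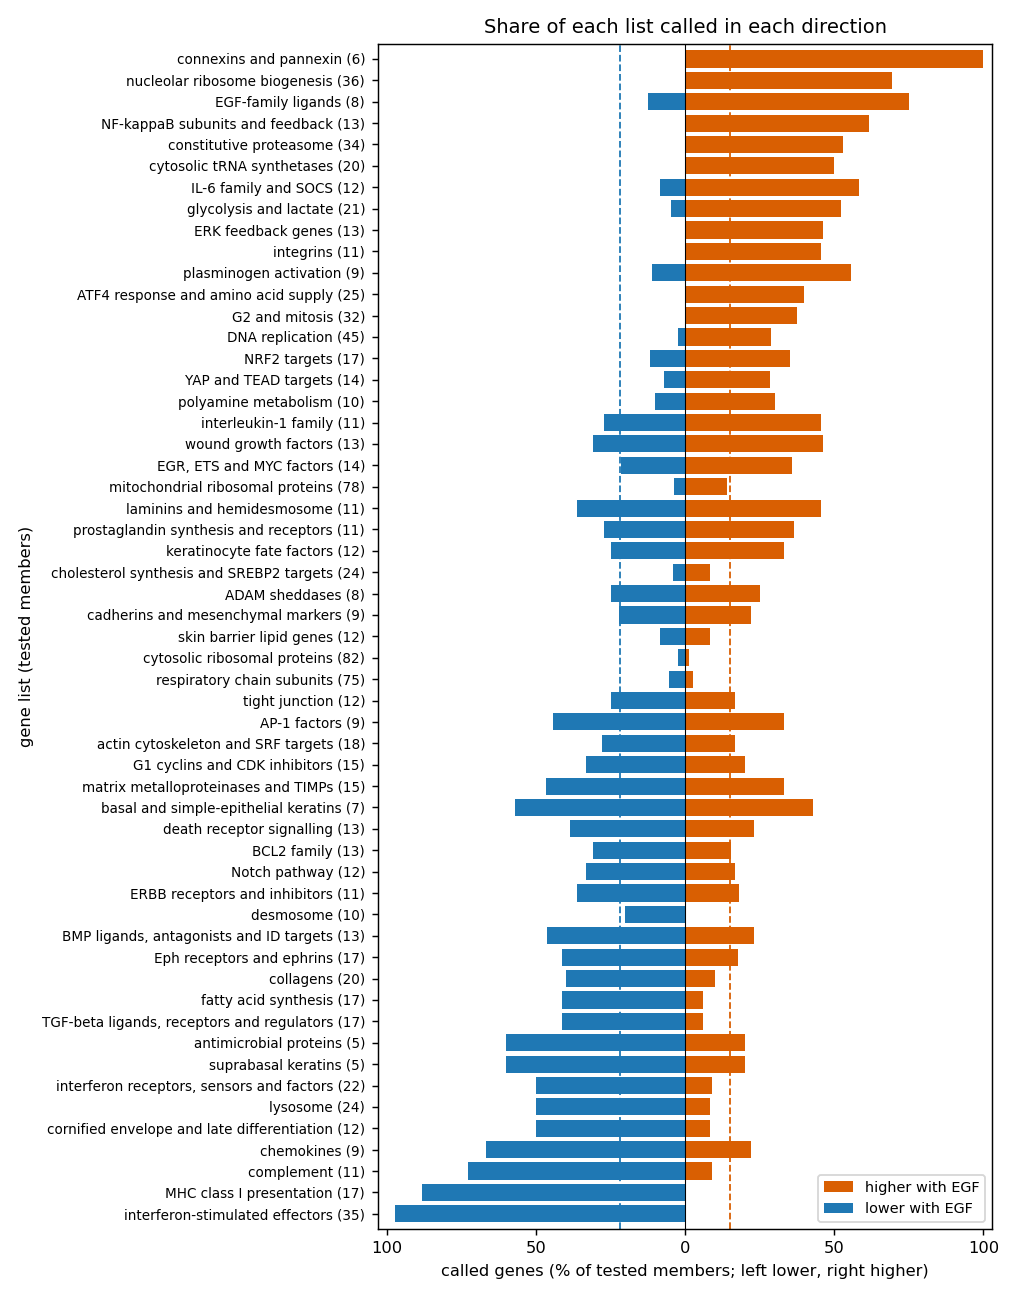
Share of the tested members of each gene list that was called higher (right, orange) or lower (left, blue) with EGF, in % of tested members, for lists with at least 5 tested genes, whose number stands in brackets. Dashed lines give the shares over all tested genes, 15.1% higher and 21.8% lower, and the interferon-stimulated effectors (bottom) and connexins (top) lie furthest from them.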

How the data were processed

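The 6 libraries were assigned to groups from their titles and descriptions. Per the labels, polyadenylated RNA was made into strand-marked libraries and sequenced at BGI on a DNBSEQ platform. The reads were mapped to GRCh38.p12. The counting program and its use of strand are not given in the sources used here, so values of overlapping and antisense genes, and of near-identical copies, are uncertain. The labels name an RNeasy kit and the paper a PureLink kit. The authors deposited expected counts per gene, FPKM values and gene lengths for each library. Genes absent from a file were counted as 0.

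These counts were rounded to whole numbers. The test was the quasi-likelihood F test of edgeR 4.0.16 (R 4.3.3) with filterByExpr and TMM factors. It was fitted once to all 9 libraries, which left 6 residual degrees of freedom, and p-values were adjusted after Benjamini and Hochberg over 12394 genes. The limits for a DEG, an adjusted p of 0.05 and a log2 fold change of 0.5 in size, are those of the study. SE is the size of the log2 fold change over the square root of F. An exact permutation test of 3 against 3 libraries cannot give a two-sided p under 0.1 and was not used. The libraries held 20288417 to 21320994 counts. The coefficient of variation between replicates beyond counting error was 0.0497 in untreated and 0.096 in EGF libraries. The floor of 3 counts covers counting error only. TPM is FPKM rescaled to the same sum in each library.

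The 56 gene lists and the rule for named genes (list members, the 10 largest rises and falls among DEGs of at least 50 mean counts without overlap, the 10 largest gains and losses of TPM, and genes at 0 in one group with at least 10 counts in each library of the other) were chosen with earlier results of these data known. Some list members that the rule would name are not reported here. Promoters are from RefSeq on GRCh38.p14 and gene coordinates from GENCODE on GRCh38. The scripts were tested on simulated data. Alternatives were DESeq2 1.42.0, limma 3.58.1 on log2 FPKM with pseudocounts of 1 or 0.1, edgeR on the 6 libraries, other scaling factors, other count filters, other limits, a replicate block, and leaving out each library.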

Additional observations from a re-analysis of the deposited data

How the results depend on the processing

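The number of DEGs was 4578 in the analysis reported and between 3192 and 4844 under the other tools, scalings, filters and libraries left out, which moved it by less than 1.5 times. It moved with the limit itself. With an absolute log2 fold change of at least 1 the total was 1892 (529 higher and 1363 lower), and with the adjusted p alone it was 8187 (4018 higher and 4169 lower). Genes called higher numbered 1197 with limma on log2(FPKM + 1) and a mean FPKM of at least 1, and 1251 with this test and no such minimum. Leaving out each library in turn gave 4405 to 4737 DEGs. DESeq2 called 4622, of which 4393 were shared with edgeR, and upper-quartile scaling called 4617, of which 4099 were shared.

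The replicate number was used as a block in one fit, which called 4560 DEGs, of which 4527 were shared. Nothing states that same-numbered libraries belong together, and the correlations of their deviations (0.0449, 0.0355 and 0.0039) gave no sign of pairing. Among the genes named, it ended the call of TP63, at the limit.

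Over the named genes and all alternatives, 5222 values kept their direction and side of the limit, 58 calls were lost, 21 of them with limma on log2(FPKM + 1), and 15 were gained. The sign turned for genes that were not called. MYC came to -0.034 and PLAU to -0.040 with upper-quartile scaling, and with each library left out in turn FLG ranged from -0.13 to 0.10, ISG20 from -0.15 to 0.071, MYC from -0.040 to 0.17 and NFKBIA from -0.10 to 0.091.

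Depth limits the result for 3473 genes that were listed in at least 1 of the 6 libraries and did not pass the count filter, most of the cornified envelope genes among them. These genes were not tested in the analysis reported, so that a difference was neither found nor excluded. The fit without a count filter called 4844 genes, of which 4523 were shared.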

Other observations

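Values of further gene groups follow. Lysosomal genes fell in 12 of 24 (50%) and rose in 2 (8.33%), at a median log2 fold change of -0.50, beside 21.8% and 15.1% of all genes. The cathepsin genes CTSH (132, 144 and 119 to 37.1, 37.8 and 34.7 FPKM, -1.78 ± 0.12) and CTSB (83.3, 93 and 78.7 to 38.8, 39.1 and 38.4 FPKM, -1.07 ± 0.07) fell, whereas CTSL, a cathepsin of a different substrate range, rose (36.1, 37.6 and 35.7 to 53.5, 61.4 and 58.3 FPKM, 0.72 ± 0.07). Among NRF2 targets 6 of 17 rose (35.3%) and 2 fell (11.8%). HMOX1 (heme oxygenase, 1.94 ± 0.24), AKR1C1 (1.86 ± 0.27) and SRXN1 (42.9, 43.1 and 46.5 to 98.3, 126 and 116 FPKM, 1.43 ± 0.14) rose, NQO1 was not called (-0.23 ± 0.09), and the ferritin chains FTH1 (3931, 3864 and 3692 to 1885, 1688 and 1633 FPKM, -1.07 ± 0.07) and FTL (-0.56 ± 0.06) fell. Prostaglandin synthesis genes included PTGS1 (2.85, 2.91 and 3.78 to 15.7, 13 and 14.7 FPKM, 2.25 ± 0.18) and PTGS2 (0.37, 0.31 and 0.36 to 0.88, 1.73 and 1.45 FPKM, 2.01 ± 0.35), the cyclooxygenases, both higher, and HPGD, which degrades prostaglandins, lower (16.4, 18.2 and 18.2 to 3.44, 7.15 and 5.66 FPKM, -1.64 ± 0.18). Respiratory chain subunits and mitochondrial ribosomal proteins held fewer called genes than the 36.9% of all genes. The former were called in 6 of 75, 2 higher and 4 lower, and the latter in 14 of 78, 11 higher and 3 lower, of which the 11 became 5 with upper-quartile scaling.

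Beside single list members, a few genes were listed in one group alone. TH, the tyrosine hydroxylase gene, had 21, 28 and 24 counts in the EGF libraries and none in the untreated ones (at least 8.15-fold higher against 3 counts per library), and PRR9, a gene of the epidermal differentiation complex, had 49, 119 and 81 counts against none (at least 27.8-fold). GABRP, a subunit of the GABA-A receptor, had 67, 67 and 50 counts in untreated cells and none with EGF (at least 20.2-fold lower), APCDD1, a WNT inhibitor, had 90, 73 and 67 counts against none (at least 25.2-fold lower) and the homeobox gene SIX2 had 17, 13 and 20 counts against none (at least 5.47-fold lower). The largest gains of TPM after KRT8 were those of HSPA8, a constitutive chaperone (1205, 1219 and 1259 to 2922, 2426 and 2660 FPKM, 1.19 ± 0.11), and ACTB (0.66 ± 0.07). Next came, in this order, KRT14, TMSB10, a thymosin (0.79 ± 0.08), KRT6A, KRT18 and the tubulin gene TUBA1B (0.94 ± 0.09). The largest loss was that of MTRNR2L2 (-0.73 ± 0.07).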
